A study of Saccharomyces cerevisiae with 12 samples.

Results

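The 42 genes described here encode translation factors of the budding yeast Saccharomyces cerevisiae, from recognition of the mRNA cap to release of the finished protein, with a pair of inhibitors of cap recognition (CAF20 and EAP1) and a tRNA methyltransferase subunit named with the factors (GCD10). They were taken by name from the deposited table of 5045 genes, and all 42 were listed there. The table covers 12 polyA RNA libraries from 1 strain, labelled Sis1-AA, grown in YPD. In the heat shock course cells were sampled at 30 °C (time 0) and after 15, 30, 60, 90 and 120 min at 39 °C. In the rapamycin course cells were sampled before and after the same times in 1 µM rapamycin. The strain is an anchor-away strain, in which rapamycin joins a tagged protein to an anchor that leaves the nucleus. Here the tagged protein was Sis1, a J-domain partner of Hsp70. Every group was thus 1 library, and the strain carried the Sis1 tag in both courses. The labels do not say whether the libraries of a course came from 1 culture or from several. Rapamycin is also the classical inhibitor of the TOR kinase, and the labels do not say whether the strain carries a rapamycin-resistant TOR allele. A strain without the tag in rapamycin was not analysed here.

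Translation begins when the eIF4F complex (the cap-binding protein eIF4E, the scaffold eIF4G and the helicase eIF4A) prepares an mRNA for the small ribosomal subunit, which arrives with eIF1, eIF1A, eIF3, eIF5 and the initiator tRNA carried by eIF2. eIF2B recharges eIF2 with GTP and is the step that eIF2 kinases inhibit under stress. eEF1A then delivers aminoacyl-tRNAs, eEF1B recharges eEF1A, eEF2 moves the ribosome, and fungi also need eEF3, an ATPase that acts at the ribosome's exit site. In yeast these genes belong, with the ribosomal protein genes, to the growth-related transcripts known to decline when cells are stressed.

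In heat shock 39 of the 41 tested genes fell, where 37.2% of all tested genes did, and the median mean change was −1.74 on the log2 scale. In rapamycin 6 of 41 fell, with a median of −0.29, and this count is near the 13.9% of all genes that fell in the same fit. The count ranged from 2 to 30 with the settings of the fit. It was 30 without the 15 and 30 min libraries, a setting tried after the data were seen, where 32.9% of all genes fell. In 20 of the 41 all 5 rapamycin libraries lay below both untreated libraries, which held for 24.0% of all genes. The difference between the courses was called in 36 of the 41, against 24.2% of all genes in the same direction. YEF3, the gene for eEF3, fell most, to 3.68% of its untreated level after 15 min at 39 °C. CAM1, which encodes a gamma subunit of eEF1B, was the only member called higher in heat shock, while TEF4, the other gene for that subunit, fell. The eIF4E-binding protein gene EAP1 was the only tested member called in neither direction in heat shock.

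All levels below are the deposited normalized read counts, a signal taken here as comparable between libraries for 1 gene. The method of normalization is not given, and the summed values ran from 3048499 to 4381101 per library. When 6 values are listed for a course they stand in the order 0, 15, 30, 60, 90 and 120 min. Mean changes are the mean log2 change of the 5 treated libraries against the course's own time 0, from 1 limma fit to log2(value + 1) over all 4937 genes with a mean of at least 10, and a gene was called at a Benjamini-Hochberg adjusted p under 0.05. With 1 library per time, the standard error (SE) measures the scatter of the treated libraries around a line in log2(time), not the spread between cultures, so the p-values describe these 12 libraries only. The levels are relative to the other polyA RNAs of a library, and in a bulk culture less RNA per cell and fewer cells with the RNA cannot be told apart. Reads in listed genes numbered 2991418 to 4379304 per library. The untreated libraries differed for these genes with an SD of 0.30 on the log2 scale, and 5 of 41 differed by more than 0.5.

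Sequences upstream of 6 members are shown because these genes include the largest falls (YEF3, TEF4 and TIF4631), the paralogs of TEF4 and TIF4631 with mean changes of smaller size (CAM1 and TIF4632), and EAP1. Each run is 210 bases long, 5′ to 3′ on the gene's strand, and reaches from base 300 to base 91 before the coding start in the RefSeq genome of assembly R64, the assembly that UCSC names sacCer3 and that the submitters' processing notes give. Capitals mark AAAATTTT, the core of the RRPE motif, which is known from the promoters of ribosome biogenesis genes.
YEF3, chrXII:636480-636689, plus strand: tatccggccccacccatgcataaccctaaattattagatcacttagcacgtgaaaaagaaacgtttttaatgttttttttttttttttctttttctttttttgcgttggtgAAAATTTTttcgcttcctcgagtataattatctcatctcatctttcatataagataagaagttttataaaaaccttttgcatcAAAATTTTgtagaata
TEF4, chrXI:282591-282800, plus strand: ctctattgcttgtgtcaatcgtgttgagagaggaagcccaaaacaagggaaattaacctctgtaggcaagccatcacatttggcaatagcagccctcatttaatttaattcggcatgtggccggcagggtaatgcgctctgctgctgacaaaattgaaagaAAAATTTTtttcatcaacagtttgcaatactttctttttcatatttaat
CAM1, chrXVI:464101-464310, plus strand: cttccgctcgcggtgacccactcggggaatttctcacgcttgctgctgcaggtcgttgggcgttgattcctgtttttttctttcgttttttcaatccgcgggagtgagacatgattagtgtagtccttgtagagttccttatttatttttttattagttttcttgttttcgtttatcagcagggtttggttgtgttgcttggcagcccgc
TIF4631, chrVII:823759-823968, plus strand: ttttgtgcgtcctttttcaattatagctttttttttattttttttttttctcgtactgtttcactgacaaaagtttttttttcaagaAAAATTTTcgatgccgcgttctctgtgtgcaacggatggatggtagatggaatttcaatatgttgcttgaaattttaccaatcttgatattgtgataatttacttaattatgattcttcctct
TIF4632, chrVII:409695-409904, minus strand: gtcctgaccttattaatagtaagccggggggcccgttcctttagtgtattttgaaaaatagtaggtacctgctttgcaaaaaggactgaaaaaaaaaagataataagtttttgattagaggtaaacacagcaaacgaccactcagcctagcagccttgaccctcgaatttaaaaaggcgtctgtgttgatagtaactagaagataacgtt
EAP1, chrXI:53404-53613, plus strand: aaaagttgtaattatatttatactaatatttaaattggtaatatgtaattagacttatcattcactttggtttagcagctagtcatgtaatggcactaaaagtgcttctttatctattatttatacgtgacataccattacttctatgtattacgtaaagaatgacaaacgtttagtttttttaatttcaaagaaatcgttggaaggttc
YEF3 has 2 copies of these letters, TEF4 and TIF4631 have 1 copy each, and the windows of CAM1, TIF4632 and EAP1 have none. These genes were picked by their heat shock changes, so this tally does not test a link between the letters and the fall. TIF2 (−2.14) and CAF20 (−1.99) also fell, have no such letters in their windows and are not printed.

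The AAAATTTT letters, which read the same on both strands, stood in the 300 bases before the coding start of 26 of the 42 members (61.9%), against 521 of 5016 listed genes with such a window (10.4%). The 30 copies in members lay between 89 and 258 bases from the coding start, with a median of 164, and in all genes the median was 140. CDC33, TEF1, EFT1 and YEF3 have 2 copies each. The Reb1 letters TTACCCG stood before 10 members (23.8%) and 8.5% of all genes. Shares closer to those of all genes were found for the PAC letters GATGAG, with 9 members (21.4%) against 19.0%, and for AGGGG, the core of the stress response element, with 5 members (11.9%) against 21.7%. The Rox1 core ATTGTTC stood before 3 members (7.1%) and 7.6% of all genes, and a heat shock element before ANB1 alone (2.4%) and 0.9% of all genes. No member window held the strict form of the Rap1 motif used here, which stood before only 17 of 5016 listed genes (0.3%). Other forms of the Rap1 site were not searched, so this result cannot show that the member windows lack one. All motifs were searched on both strands. The motifs were chosen with earlier results of these data known. These matches are letters in a window and not mapped binding sites.

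In heat shock all 25 tested members with AAAATTTT were called lower, with a median of −1.86 and a range from −3.37 to −0.89. Of the 16 members without it 14 were called lower, and their median was −1.46. Among the other tested genes, 70.7% of 492 with AAAATTTT and 33.0% of 4378 without it were called lower in heat shock. In rapamycin these shares were 37.6% and 11.3%. All 6 members called lower there were among the 25 with the letters (24.0%), and none of these calls held under all alternative settings. In the plot of heat shock changes by motif, the genes with the smallest falls, TIF4632 and TEF2, stand on the side without it, as do CAM1 and EAP1. The changes on that side run from −2.14 at TIF2 to 0.43 at CAM1, and CAF20 stands there at −1.99. TIF1, the paralog of TIF2, has the letters and a change of −1.52. How reads were divided between TEF1 and TEF2, and between TIF1 and TIF2, is uncertain.

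**Figure D1:**
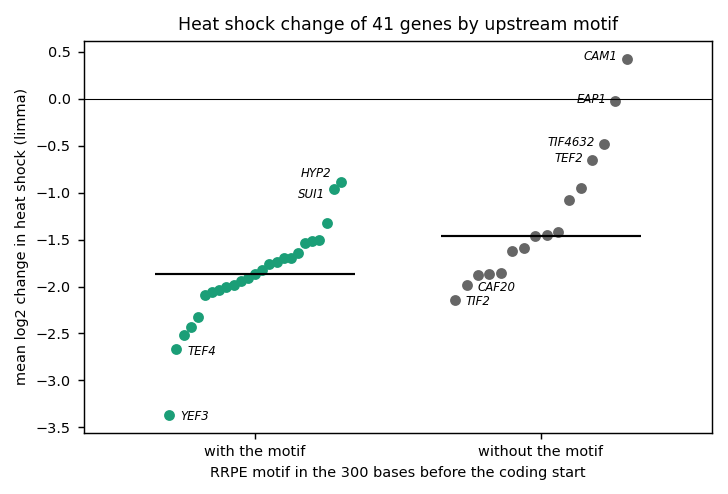
Mean log2 change in heat shock (y axis, limma) of the 41 tested members, with (left, 25 genes) and without (right, 16 genes) AAAATTTT in the 300 bases before the coding start; each point is 1 gene and each bar is the group's median. The 25 genes with the motif lie between −3.37 and −0.89, and those without it run from −2.14 at TIF2 to 0.43 at CAM1.

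The heat shock course asked how the transcriptome responds to a rise in temperature. Of the 41 tested members 39 were called lower (95.1%), where 37.2% of all tested genes were, and 1 was called higher, where 32.6% of all genes were. Their mean changes ran from −3.37 to 0.43, and the median of all tested genes was −0.076. In 36 of the 41 genes all 5 libraries at 39 °C lay below the other 7 libraries of the study, which held for 27.0% of all genes, and in none did they lie above the other 7, which held for 22.1%. The exceptions were TIF4632, EAP1, GCD7, SUI1 and CAM1. For 36 of the 40 genes called, the call held under all alternative settings tried.

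**Figure D2:**
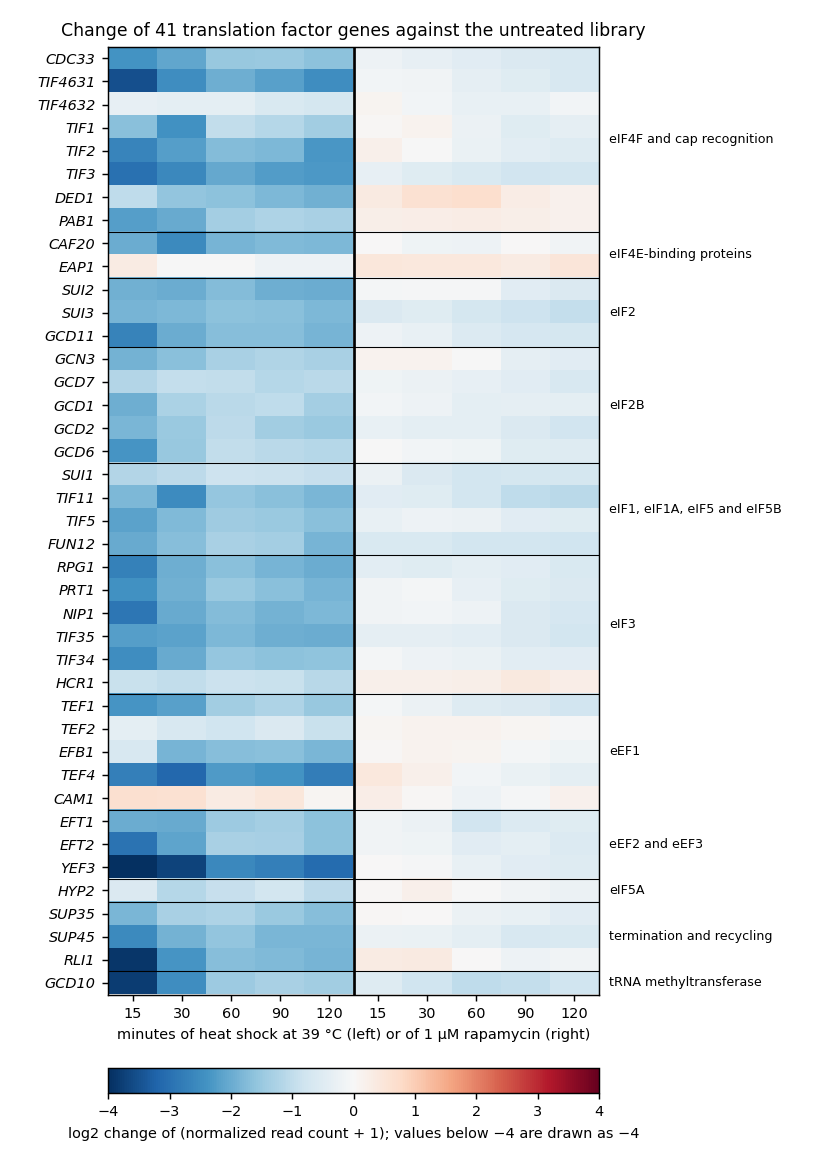
Log2 change of the normalized read count + 1 against the course's untreated library for the 41 tested members, grouped by role, at 15 to 120 min of heat shock (left 5 columns) and rapamycin (right 5 columns); each cell is 1 library. The heat shock changes are negative for all genes but CAM1 and, at 15 min, EAP1. EAP1 had only −0.027 at 30 min and −0.02 at 60 min of heat shock. YEF3 reaches −4.76, which is drawn at the end of the scale, and the rapamycin columns stay between −1.08 and 0.66.

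Among the 8 genes of cap recognition and eIF4F all 8 fell in heat shock, with a median of −1.72. TIF4631 (eIF4G1) fell most. Its levels in heat shock were 2761, 243, 494, 710.4, 614 and 489.6, and in rapamycin 2731, 2507, 2501, 2142, 1960.4 and 1763. TIF4632, its less expressed paralog (eIF4G2), had 466, 372, 357, 357, 303 and 289 in heat shock and 434, 469.5, 399.8, 352, 350.2 and 399.9 in rapamycin. The mean change in heat shock was −2.52 (SE 0.29) for TIF4631 and −0.48 (SE 0.13) for TIF4632. TIF4631 made up 85.6% of the pair's reads before heat shock and 39.5% at 15 min, and in rapamycin it kept 81.5% to 86.2%. Their coding sequences are 58.3% identical and share no 50-base window. TIF4632 lost its call when libraries were scaled to equal totals (−0.21), a scaling that raised the heat shock median of all genes to 0.20.

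TIF3, which encodes eIF4B, a partner of the eIF4A helicase, had 3011, 376, 500.2, 735, 634 and 606 in heat shock, a mean change of −2.43 (SE 0.18). Its rapamycin levels of 3434, 2709, 2448, 2267, 2025 and 2075 gave −0.58 (SE 0.18) and a call, and every treated library of either course lay below both untreated ones. DED1, the scanning helicase, had 2128, 1061, 717, 679, 609 and 562 in heat shock, and unlike most members it was lower at each later time. In rapamycin DED1 had 1330.1, 1723, 2033, 2101, 1637 and 1484 and was not called (0.42, SE 0.18, adjusted p 0.113); all 5 treated libraries lay above that course's time 0 and below the other course's time 0. The remaining genes of the group, CDC33 (eIF4E), TIF1 and TIF2 (eIF4A) and PAB1 (the poly(A)-binding protein), fell in heat shock with mean changes of −1.83, −1.52, −2.14 and −1.62.

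The genes for the eIF4E-binding proteins, which compete with eIF4G for the cap-binding protein, differed in their calls. CAF20 had 1167, 294, 199, 319, 344 and 338 in heat shock, a fall with a mean change of −1.99 (SE 0.22), and 932, 950.0, 831, 813, 939.9 and 846 in rapamycin, where it was not called. EAP1 had 165, 209, 162, 163, 143 and 143 in heat shock, a mean change of −0.025 (SE 0.13, adjusted p 0.871). In rapamycin EAP1 had 112, 152, 151, 149, 139.7 and 157, which was called higher (0.42, SE 0.13, adjusted p 0.0368). All 5 of those libraries were above their own time 0 and below the time 0 of the heat shock course, and with the untreated libraries exchanged between the courses the change was −0.15, so the direction rests on which time 0 is used. The call in rapamycin was also lost without the heat shock library at 90 min or the rapamycin library at 30, 60, 90 or 120 min. Per kilobase of coding sequence CAF20 had 27.6 times the level of EAP1 in the untreated heat shock library and 5.48 times at 15 min.

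All 3 genes of eIF2, the carrier of the initiator tRNA, fell in heat shock, and their mean changes were close together (−1.98 to −1.76). SUI2 (the alpha subunit, whose phosphorylation turns eIF2 into an inhibitor of eIF2B) had 866, 227, 218, 261, 225 and 217 in heat shock and 618, 580.0, 601, 593, 454 and 417 in rapamycin. SUI3 (the beta subunit) had 4046, 1110.3, 1163, 1303, 1263 and 1157 in heat shock. In rapamycin SUI3 had 5180.2, 3507, 3666, 3161, 2899 and 2678, a call of −0.71 (SE 0.14, adjusted p 0.00602). That fall was present at 15 min and every treated library lay below both untreated ones. With the untreated libraries exchanged the call was lost at −0.36.

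The 5 subunits of the exchange factor eIF2B (GCN3, GCD7, GCD1, GCD2 and GCD6) all fell in heat shock, with a median of −1.42 and a range from −1.46 to −1.08, a median nearer 0 than those of eIF2, eIF3 and eIF4F. GCD6, the catalytic epsilon subunit, had 1470.4, 283, 517, 749.9, 699 and 659.6 in heat shock and 1636, 1629.6, 1519.8, 1460.1, 1178 and 1147 in rapamycin. None of the 5 was called in rapamycin. GCD10, named with these genes because its mutants also derepress GCN4, encodes a subunit of a tRNA methyltransferase. Its levels were 518, 36.6, 91.3, 187, 209.6 and 196 in heat shock, a mean change of −2.09 (SE 0.26). In rapamycin GCD10 had 582, 411, 332, 287, 299 and 333, the lowest mean change of the set (−0.82, SE 0.26, adjusted p 0.0409).

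The genes for eIF1 (SUI1), eIF1A (TIF11), eIF5 (TIF5) and eIF5B (FUN12) fell in heat shock, with a median of −1.67. SUI1 fell least of these, from 3297 to 1449.9, 1609, 1861, 1819 and 1758, a mean change of −0.96 (SE 0.14). In rapamycin SUI1 had 3120.2, 2639.9, 2112, 1861, 1922 and 1904, a call of −0.59 (SE 0.14, adjusted p 0.0124). By 60 to 120 min SUI1 was therefore at much the same level in both courses, and the difference between its mean changes was not called (−0.37, SE 0.19). TIF11 had 3778, 1076, 665, 1294, 1189 and 1067 in heat shock and 5160.3, 3756, 3651, 3103, 2564 and 2437 in rapamycin, where it missed the threshold (−0.76, SE 0.27, adjusted p 0.0613). FUN12 was called lower in rapamycin at −0.70 (SE 0.22), but its untreated levels differed, at 4451 in the heat shock course and 6923 in the rapamycin course. Its rapamycin levels from 15 min on were 4492, 4488, 4201, 4183 and 3988, so the libraries at 15 and 30 min lay above the other untreated library.

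All 6 genes of eIF3, the scaffold that binds the small subunit, fell in heat shock. RPG1, PRT1, NIP1, TIF35 and TIF34, which encode the core, had mean changes between −2.06 and −1.86, and HCR1, the loosely bound j subunit, had −0.95. PRT1, the RNA-binding b subunit, had 2499, 467, 654, 885, 782 and 695 in heat shock and 2680.0, 2419.8, 2546, 2127, 1902 and 1809 in rapamycin. HCR1 had 1477, 797, 753, 810.5, 790.3 and 687 in heat shock and 1195, 1388, 1386, 1420.0, 1552 and 1432 in rapamycin, where its change of 0.26 (SE 0.12) was not called. Per kilobase of coding sequence HCR1 went from below TIF35 (1852 against 2823 in the untreated library) to the highest of the 6 in all 5 libraries at 39 °C. The ratio of the highest to the lowest eIF3 gene, per kilobase, was 3.65 before and 8.44 after 15 min of heat shock. TIF35 was the only eIF3 gene called in rapamycin (−0.49, SE 0.14).

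Of the 5 genes of eEF1, 4 fell in heat shock and CAM1 was higher. TEF4 had 8215, 1221, 927, 1699, 1552 and 1211 in heat shock, a mean change of −2.67 (SE 0.25). CAM1 had 981, 1543, 1505, 1226, 1352 and 1038, a mean change of 0.43 (SE 0.17, adjusted p 0.0478), with all 5 libraries above time 0. That call was lost under 8 alternative settings, among them leaving out the heat shock library at 15 min (0.37), 30 min (0.38) or 90 min (0.42), or the rapamycin library at 30 or 90 min (0.43 in both). In rapamycin TEF4 had 4717, 6300.2, 5467, 4349, 3933 and 3635, and CAM1 had 935, 1122, 975, 809, 897 and 1048, and neither was called.

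TEF4 thus made up 89.3% of the reads of the gamma subunit pair before heat shock and 44.2%, 38.1%, 58.1%, 53.4% and 53.9% from 15 to 120 min. The exact 95% binomial interval at 30 min, which covers counting error only, was 36.0% to 40.2%. In rapamycin the share of TEF4 stayed between 77.6% and 84.9%, against 83.5% at time 0. The untreated level of TEF4 differed between the courses (8215 against 4717), the largest such difference among members, at 0.80 on the log2 scale. The coding sequences of TEF4 and CAM1 are 68.6% identical and share no run of 50 bases, and their upstream windows align at 38.9% identity.

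EFB1, the exchange subunit of eEF1B, had 9124, 5815, 2539, 2785, 2889.8 and 2543 in heat shock, so that it was still at 63.7% of time 0 at 15 min, when most members were at their lowest. In rapamycin it had 7815, 8139.9, 8689.6, 8369, 7461 and 6893 and was not called. TEF1 and TEF2 both encode eEF1A and are 99.9% identical in coding sequence, with 92.5% of their 50-base windows repeated in the genome, so how reads were divided between them is uncertain. TEF1 was listed at 3427, 662, 754, 1317, 1451 and 1198 in heat shock and 3128, 2992, 2676, 2192, 2079.7 and 1830.0 in rapamycin. TEF2 was listed at 4023, 3066, 2575, 2328, 2714 and 2174 in heat shock and 3268, 3436, 3639.8, 3579, 3458 and 3161 in rapamycin. Their mean changes in heat shock were −1.74 (SE 0.19) and −0.66 (SE 0.16), and TEF1 took 46.0% of the pair's reads before heat shock and 17.8% to 36.1% after. The summed level of the pair was 7450.2 before heat shock and 3329 to 4165 after. This sum does not depend on that division, but it leaves out any shared reads that were not counted. TEF2 lost its call under quantile normalization (−0.0088) and with the untreated libraries exchanged (−0.36).

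**Figure D3:**
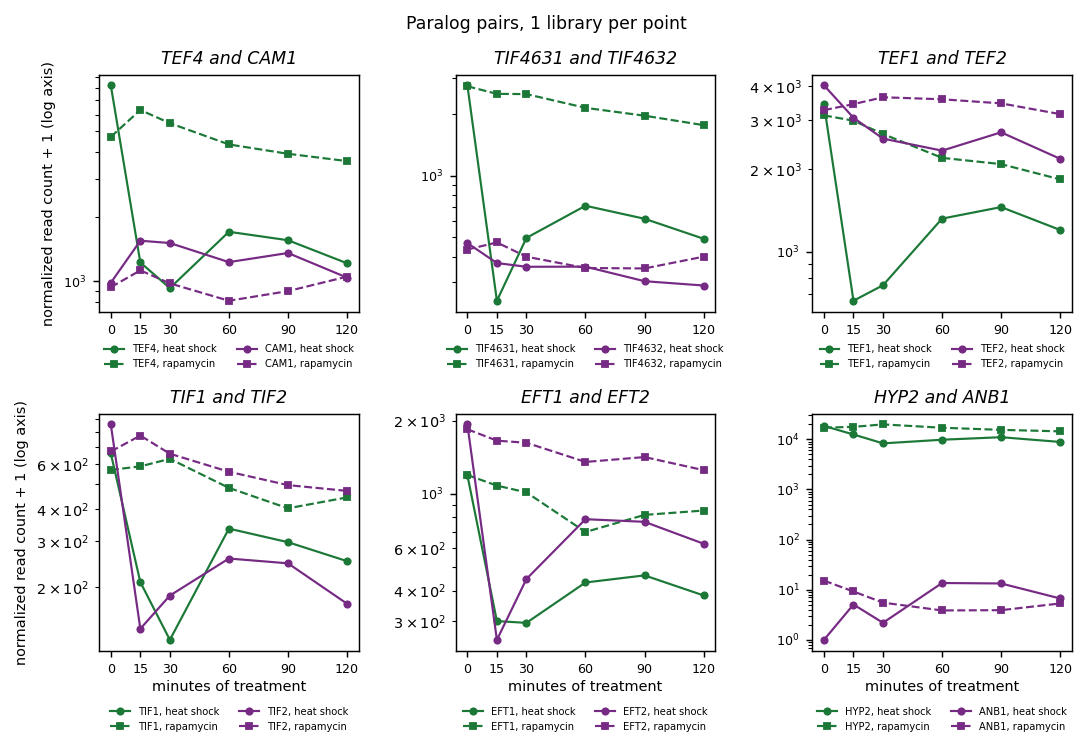
Normalized read count + 1 (log y axis) against minutes of treatment for 6 pairs of paralogs, with circles and solid lines for heat shock and squares and dashed lines for rapamycin; each point is 1 library. TEF4 and TIF4631 drop by 15 min of heat shock to the level of CAM1 and TIF4632 or below, and in rapamycin the pairs stay apart.

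YEF3 (eEF3) had the highest read count of the set in the untreated and rapamycin libraries, and HYP2 had more reads than YEF3 in all 5 libraries at 39 °C. The levels of YEF3 in heat shock were 31805, 1169, 2453, 5354, 4797 and 3797. In rapamycin YEF3 had 26937, 26960.2, 26065, 21765, 19801 and 18993. The mean change in heat shock was −3.37 (SE 0.36), the largest fall of any member, and in rapamycin YEF3 was not called. After 15 min of heat shock YEF3 stood at 3.68% of its untreated level and at 60 min at 16.8%. EFT1 and EFT2 both encode eEF2, the translocation factor, and are 99.8% identical in coding sequence, with 91.9% of their 50-base windows repeated, so their division is uncertain too. EFT1 was listed at 1192, 299, 294, 431, 461 and 381 in heat shock and 1195, 1081, 1014, 696, 819 and 853 in rapamycin. EFT2 was listed at 1929.6, 250.1, 446, 786, 767 and 623 in heat shock and 1843, 1654, 1622, 1352, 1416 and 1251 in rapamycin. Their summed level was 3122 before heat shock and between 549 and 1228 in the 5 libraries at 39 °C, and in rapamycin it was 3038 before and 2049 to 2735 after.

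HYP2 encodes eIF5A, which helps ribosomes past difficult peptide bonds and carries the hypusine modification. It had 18484, 12478, 8293, 9804, 11017 and 8853 in heat shock, a mean change of −0.89 (SE 0.27, adjusted p 0.0136), and 17059.9, 17719, 19818, 17013, 15427 and 14417 in rapamycin. The heat shock call was lost with equal totals (−0.615) and with quantile normalization (−0.57). ANB1, the paralog known as the hypoxic form of eIF5A, was below the filter on low values and was not tested. Its counts were 0, 4, 1, 15, 12 and 7 reads in heat shock and 15, 9, 4, 3, 3 and 5 reads in rapamycin. No reads in the untreated heat shock library allow a level of up to 4.28 there, while the other untreated library had 15 reads, so no change of ANB1 can be read from these libraries. HYP2 took at least 99.87% of the pair's reads in every library, and the coding sequences are 90.9% identical with no repeated 50-base window.

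The release factor genes SUP45 (eRF1) and SUP35 (eRF3) and the recycling ATPase gene RLI1 fell in heat shock. SUP45 had 4030.3, 691, 1081, 1342, 1135 and 1131 in heat shock and 4099, 3452, 3436, 3129.9, 2650.0 and 2705 in rapamycin. RLI1 had 2694, 179, 520.4, 826, 799.5 and 735 in heat shock, a mean change of −2.32 (SE 0.32), with 6.64% of the untreated level at 15 min. In rapamycin RLI1 had 2418, 3021, 3105, 2459.5, 2085 and 2201 and was not called. The mean change of SUP35 in heat shock was −1.50 (SE 0.21).

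The plot of mean changes orders the members by their fall in heat shock. Of the 40 pairs of neighbours in that order, 5 lie farther apart than the larger of their SEs. These gaps stand between YEF3 and TEF4, between GCD1 and GCD7, and at each step from TEF2 through TIF4632 and EAP1 to CAM1. Neighbours between TEF4 and GCD1 are not resolved from each other beyond that SE.

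**Figure D4:**
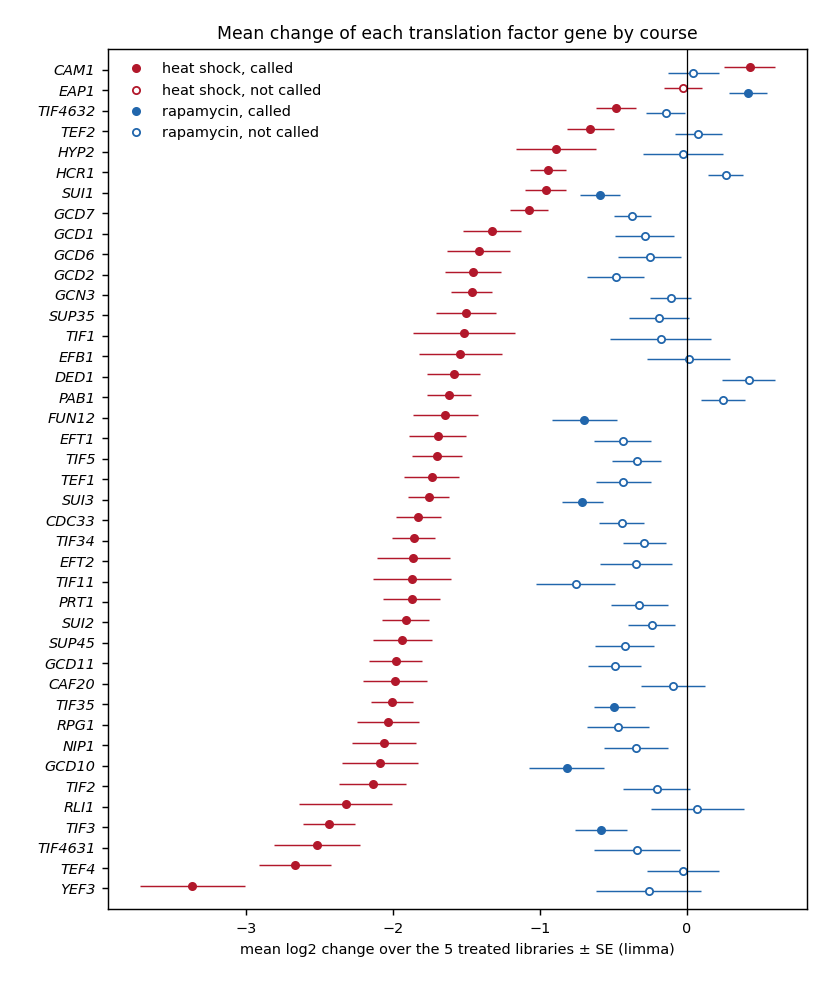
Mean log2 change (x axis, ± SE from limma) of each tested member in heat shock (red) and rapamycin (blue), ordered by the heat shock change, with filled points for genes called at an adjusted p under 0.05. Heat shock values run from −3.37 at YEF3 to 0.43 at CAM1, and rapamycin values lie between −0.82 and 0.42.

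In the rapamycin course, which depletes Sis1 from the nucleus, 6 of the 41 members were called lower (14.6%), where 13.9% of all tested genes were, and 1 was called higher, where 12.3% of all genes were. In this fit the share of members called lower is near that of all genes. The genes called lower were SUI3, SUI1, FUN12, TIF3, TIF35 and GCD10, and EAP1 was called higher; none of these 7 calls held under all alternative settings. The pooled SE includes the curved response to heat shock, and with each course fitted alone 21 members were called lower, where 23.1% of all genes were. Without the 15 and 30 min libraries of both courses, which was tried after the data were seen, 30 members were called lower, where 32.9% of all genes were. The count also moved with single libraries: without the heat shock library at 15 min it was 12, without 60 min 10 and without 90 min 3, and without the rapamycin library at 60 min it was 3, without 90 min 2 and without 120 min 2. Over all genes the number called in either direction moved too. It was 1296 in the main fit and 773 to 1632 with single libraries left out. In 20 members all 5 rapamycin libraries lay below both untreated libraries (24.0% of all genes), and in 0 members they lay above both (15.8% of all genes).

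The median member was lower at each later time in rapamycin. Its change against time 0 was −0.092, −0.13, −0.30, −0.45 and −0.51 from 15 to 120 min, and the medians of all genes lay between −0.079 and −0.028. In 39 of 41 members the library at 120 min was below that at 15 min, with EAP1 and HCR1 as the exceptions, while 44.9% of all genes were higher at 120 min than at 15 min. In 29 members the library at 120 min was the lowest treated one, a count that was not made over all genes. The slope per doubling of time had a median of −0.14, and GCN3 (−0.20, SE 0.05) and TEF1 (−0.23, SE 0.07) were called lower, where 9.88% of all genes were; 0 members were called higher, where 8.32% were. With the course fitted alone 25 members had a falling slope at the threshold, where 20.8% of all genes did. The count of 2 became 0 without the rapamycin library at 30, 90 or 120 min, 1 without that at 15 or 60 min or the heat shock library at 90 min, 5 without the heat shock library at 30, 60 or 120 min, and 11 without that at 15 min. Over all genes 899 slopes were called in either direction in the main fit, and 224 to 1320 with single libraries left out.

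The difference between the courses, heat shock minus rapamycin, was called below 0 in 36 of 41 members, where 24.2% of all genes were, and above 0 in none, where 21.7% were. Its median was −1.36. YEF3 (−3.10, SE 0.50), TEF4 (−2.64, SE 0.35) and RLI1 (−2.39, SE 0.45) differed most. The 5 genes not called were TIF4632 (−0.34, SE 0.19), EAP1 (−0.44, SE 0.18), SUI1, HYP2 (−0.87, SE 0.39) and CAM1 (0.38, SE 0.25). Of the 36 calls 28 held under all alternatives, and the others were DED1, FUN12, GCD10, GCD6, GCD7, TEF2, TIF1 and TIF11.

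The fall in heat shock was deepest at 15 min for most members. The median change against time 0 was −2.01, −1.95, −1.47, −1.50 and −1.68 from 15 to 120 min, while the medians of all genes stayed between −0.094 and −0.044. At 15 min 34 of the 41 genes were at or below 50% of time 0, where 23.5% of all genes were. The lowest of the 5 treated libraries was that at 15 min for 27 members, and the highest was that at 60 min for 24. The times of the lowest and highest libraries were not counted over all genes. From 15 to 60 min the level went up in 34 of 41 members, with a median of 0.72, and in 51.6% of all genes. From 60 to 120 min it went down in 37, the exceptions being PAB1, CAF20, GCN3 and GCD10, while 45.2% of all genes went up. The slope over the 5 treated libraries was called positive in 20 members, where 28.3% of all genes were, with GCD10 (0.83, SE 0.10), RLI1 (0.67, SE 0.12) and YEF3 (0.64, SE 0.13) the steepest. It was called negative in DED1 (−0.28, SE 0.07), EFB1 (−0.31, SE 0.11) and EAP1 (−0.17, SE 0.05), where 25.4% of all genes were. Without the library at 15 min 5 slopes were called positive and 0 negative, and the median slope of 0.18 became 0.069, and without that at 120 min it was 0.28. Over all genes 2651 slopes were called in either direction in the main fit, and 1440 without the heat shock library at 15 min. Without the 15 and 30 min libraries of both courses, an alternative chosen after the data were seen, 8 slopes were called negative (9.58% of all genes) and 0 positive (4.76% of all genes).

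The share of all reads that fell in the 42 genes shows the sum of these changes. It was 3.44% before heat shock, then 0.97%, 1.03%, 1.52%, 1.55% and 1.41%. In rapamycin it was 3.30%, 3.31%, 3.19%, 2.93%, 2.76% and 2.67%. The exact 95% binomial interval of the first value, which covers counting error only, was 3.42% to 3.46%. YEF3 alone held 21.7% of the set's reads before heat shock and 2.75% at 15 min, and HYP2 went from 12.6% to 29.4%.

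**Figure D5:**
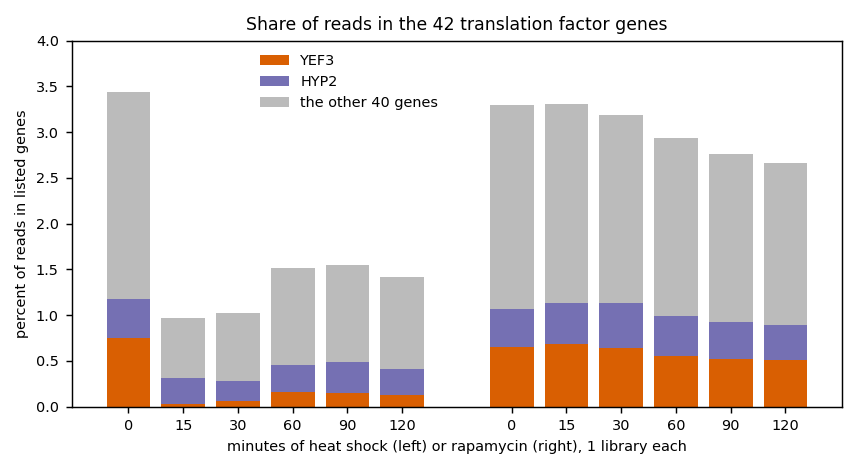
Percent of the reads in listed genes that fell in the 42 members (y axis, from 0) in each of the 12 libraries, divided into YEF3, HYP2 and the other 40 genes. The heat shock bars drop from 3.44% to between 0.97% and 1.55%, and the rapamycin bars go from 3.30% to 2.67%.

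Before treatment the members spanned a wide range of levels. Per kilobase of coding sequence the mean of the untreated libraries was highest for HYP2 (37494), followed by EFB1 (13639), SUI1 (9813), TIF11 (9673) and YEF3 (9369). The lowest were TIF4632 (164), EAP1 (72.9) and ANB1 (15.0). TIF4632 and ANB1 are the rarer members of their paralog pairs. The untreated libraries differed by 8177 against 11169 per kilobase for TIF11 and by 10083 against 9542 for SUI1, so the order from SUI1 to YEF3 is not resolved. Most of the coding sequence of TIF1, TIF2, TEF1, TEF2, EFT1 and EFT2 is repeated in the genome. Their levels leave out any shared reads that were not counted, so the places of these genes in the ranking are uncertain.

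The remaining gene pair, TIF1 and TIF2, encodes eIF4A from coding sequences that are 99.5% identical, with 84.9% of 50-base windows repeated. TIF1 was listed at 659, 207, 123, 335, 297 and 251 in heat shock and 568, 586, 627, 484, 403 and 444 in rapamycin. TIF2 was listed at 854, 136, 184, 256, 246 and 171 in heat shock and 670.2, 773, 657, 559, 496 and 471 in rapamycin. Their summed level was 1513 before heat shock and 307 to 592 after, and in rapamycin 1238 before and 898 to 1359 after. The other 36 members have no repeated 50-base window, and EFB1 and TEF4 each overlap a small nucleolar RNA gene in the RefSeq annotation (SNR18 and SNR38).

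Other genes of the translation apparatus were counted from 6 lists chosen by function, of which 71 of 78 genes were tested. In heat shock 56 fell and 2 were higher, with a median of −1.27, where 37.2% and 32.6% of all tested genes were called lower and higher. In rapamycin 11 fell and 1 was higher, where 12.3% of all genes were, with a median of −0.25. The count that fell is near the 13.9% of all genes in the main fit. Counts of these genes under other settings are not given here. All 19 tested aminoacyl-tRNA synthetase genes, which charge the tRNAs, fell in heat shock, with a median of −1.72. The lowest were KRS1 (lysine, −2.34) and ALA1 (alanine, −2.07), and in rapamycin 4 of the 19 fell, with SES1 (serine) at −0.62. All 9 genes for modification of eIF5A and eEF2 fell in heat shock, led by LIA1, the hydroxylase that completes hypusine (−2.98), and JJJ3, needed for diphthamide (−2.68). None of the 9 was called in rapamycin.

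The counts that follow stand beside 37.2% of all genes called lower and 32.6% called higher in heat shock. In rapamycin these shares were 13.9% and 12.3%. Of 6 tested genes for methylation of elongation and release factors 5 fell in heat shock, with EFM4 at −2.60 and EFM1 at −2.38. In rapamycin 3 of them fell, with EFM2 at −1.05 and EFM4 at −1.02. In the pathway of the eIF2 kinase 5 of 6 fell in heat shock, with YIH1 (−1.51) and GIR2 (−1.31) the lowest. In rapamycin 1 of the 6 fell, near the share of all genes. Of 13 tested genes for ribosome rescue 7 fell in heat shock, with ARB1 at −1.56 and DOM34 at −1.54. In rapamycin 2 of the 13 fell, also near the share of all genes. Among 18 mRNA-binding and decapping regulators 11 fell in heat shock, with NEW1, a relative of eEF3, at −2.21 and ASC1, a ribosome-bound protein, at −2.10. In the same list DBP1, a paralog of DED1, was higher in heat shock (1.09, SE 0.24), and NGR1, an RNA-binding protein, was higher in both courses (0.86 in heat shock and 1.19 in rapamycin, SE 0.14).

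Ribosomal protein genes, taken by their names, also fell in heat shock; many are near-identical pairs, so that only their counts are given. Of 132 tested 127 were called lower in heat shock, where 37.2% of all genes were, with a median of −2.07, against −1.74 for the factors. In rapamycin 0 of the 132 were called lower and 1 was called higher, with a median of −0.16. Of all genes 13.9% and 12.3% were called lower and higher there. These counts are from the main fit, whose pooled SE includes the curved response to heat shock. Counts of the ribosomal protein genes under other settings are not given here. The heat shock slope of the ribosomal protein genes was called positive in 120 of 132, with a median of 0.52 per doubling of time. That of the factors was called positive in 20 of 41, with a median of 0.18, where 28.3% of all genes were.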

How the data were processed

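PolyA RNA was sequenced in 12 libraries, 1 per course and time, per the labels. Per the labels' protocols, total RNA came from a phenol and chloroform preparation and an NEB Ultra kit was used for the libraries. The submitters' processing notes name Bowtie, HTSeq and the build sacCer3 without versions or settings; the normalization and the use of strand are not given in the sources used here. The authors deposited 1 table whose values are a normalized read count signal for 5045 genes. The values of a library are multiples of what 1 read is worth there (0.8133 to 1.4261), and 100.0% of them gave whole reads within 0.05 read; a count of 0 allows 2.44 to 4.28 in the table's unit.

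The 42 members, the 6 lists of other translation genes and the motifs were chosen with earlier results of these data known. Genes with a mean under 10 (108 genes, ANB1 among them) were left out. One limma fit (limma 3.58.1, R 4.3.3, eBayes with a trend) to log2(value + 1) held, for each course, an intercept, a step to the treated libraries and a centred slope in log2(time), with 6 residual and 4.29 prior degrees of freedom. This scale understates changes at low counts. Values in all libraries are given for the 4 lowest and 4 highest members in heat shock, the 3 lowest and 3 highest in rapamycin and in the difference, both genes of 6 paralog pairs, CAF20 and EAP1, and the member nearest the group median in eIF2, eIF2B, eIF3 and termination. Other lists are given by counts and at most their 2 lowest and 2 highest called genes. EFB1, FUN12, and the single values of TIF35 and SUP35 were added after their values were seen.

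Alternatives were edgeR 4.0.16 and DESeq2 1.42.0 on the recovered reads, other scalings, filters, pseudocounts, time axes and time 0 libraries, a block for the shared times, and each treated library left out. The fit was also run on simulated data, and the outcome of that run is not given here. Upstream windows, coding lengths and identities come from the RefSeq genome and annotation of R64 (Biopython 1.88); all 42 members and 5016 listed genes had a window.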

Additional observations from a re-analysis of the deposited data

How the results depend on the processing

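The number of members called lower in heat shock (37 to 39) and in the difference between the courses (32 to 39), and the medians of the difference and of the rapamycin change, kept their direction, with the counts within 1.5 times of those reported, under all alternatives that gave them. The heat shock median was −1.46 with equal totals, −1.39 with quantile normalization and −1.53 without the 15 and 30 min libraries of both courses, an alternative chosen after seeing the data. The count called higher in heat shock was 0 with the slope in minutes or each course fitted alone, 2 with the untreated libraries exchanged, and 0 to 1 with single libraries left out. In rapamycin the count called lower was 2 with equal totals, with quantile normalization or with the slope in minutes, 15 with a shared time 0, 21 with each course fitted alone, 30 without the 15 and 30 min libraries (32.9% of all genes) and 2 to 12 with single libraries left out. Over all genes 1296 were called in rapamycin in either direction in the main fit. That number was 768 with the slope in minutes, 1649 with a shared time 0 and 1985 with each course fitted alone. The count called higher there was 2 with equal totals or the course alone, 4 without the 15 and 30 min libraries, 0 with the slope in minutes, a shared time 0, exchanged time 0 or DESeq2, and 0 to 1 with single libraries left out. The difference was called above 0 in 1 member with no filter (ANB1), a shared (CAM1) or an exchanged time 0 (EAP1), and in 0 otherwise by limma, edgeR and DESeq2. The median heat shock slope was 0.35 with equal totals, 0.069 to 0.28 with single libraries left out and reversed to −0.21 without the 15 and 30 min libraries, where 8 slopes were called negative and 0 positive, against 9.58% and 4.76% of all genes. Positive heat shock slopes numbered 34 with equal totals (0 negative), 10 with the slope in minutes, 13 with the course alone and 5 to 23 with single libraries left out, and negative ones 0 to 4. Over all genes 2651 heat shock slopes were called in either direction in the main fit. That number was 3041 with equal totals, 2076 with the slope in minutes and 2153 with the course alone. Falling rapamycin slopes numbered 1 with equal totals, TMM or the slope in minutes, 0 with quantile normalization, 25 with the course alone, 7 with DESeq2 or without the 15 and 30 min libraries, and 0 to 11 with single libraries left out. In rapamycin 13 members that were not called changed sign under at least 1 alternative, so no direction is read from their changes. EAP1 changed sign in heat shock (0.25 with equal totals, 0.032 with TMM, 0.26 with a shared and 0.54 with an exchanged time 0, 0.042 in edgeR, 0.052 in DESeq2, −0.12 to 0.021 with single libraries left out) and in the difference (0.12 and 0.68 with a shared and an exchanged time 0). With exchanged time 0 the rapamycin changes of DED1 (−0.26), EAP1 (−0.15) and HCR1 (−0.043) reversed too. Quantile normalization reversed the difference for SUI1 (0.025). Without the 15 and 30 min libraries the heat shock slopes of YEF3 (−0.48) and RLI1 (−0.16) reversed, and that of EFB1 ranged from −0.40 to 0.029 with single libraries left out. Beyond the fewer libraries and the construction of each setting, the cause was not tested. No paired analysis was possible because the labels give no replicate numbers that pair libraries. With the times shared by the courses as a block, chosen after seeing the data, 35 members were called below 0 in the difference, and TIF1 lost its call. With equal totals the heat shock median over all genes went from −0.076 to 0.20. Of the members, ANB1 alone was left out by the filter on low values.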
